A study of Xenopus laevis with 17 samples.

Results

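The regions described here are Foxn4 binding sites between genes that were found both with and without Multicilin in animal caps of the frog Xenopus laevis. A region was taken when a peak of the library with Foxn4 plus Multicilin overlapped a peak of the library with Foxn4 alone by at least 1 bp. Its centre also had to lie more than 1000 bp from every gene model start and outside every gene model. These rules gave 10540 regions, 35.52% of the 29673 peaks found with Foxn4 plus Multicilin and 40.82% of the 25819 peaks of that list that overlapped a Foxn4-alone peak. The 2 lists together held 94931 peaks. The members were thus chosen by the measured overlap of the 2 peak lists and by position. They are called kept intergenic peaks below, and a peak is called kept when it overlapped a peak of the other list.

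An animal cap is the ectoderm of the upper pole of the blastula or early gastrula, explanted and cultured. Caps were dissected at stage 10, the receptor fusions were activated at mid-stage 11 by adding 20 µM dexamethasone, and tissue was collected 9 h later at 22 °C, near stage 18. Chromatin immunoprecipitation used Foxn4 fused to GFP and the human glucocorticoid receptor, injected together with Multicilin RNA (n = 1) or alone (n = 1), so what was mapped is an injected, tagged protein and not the frog's own Foxn4. RNA came from separate caps, 20 for each condition. They had received Multicilin with Cas9 protein and a foxn4 guide RNA (Foxn4 CRISPR, n = 2), Multicilin with a foxn4 morpholino, an antisense oligonucleotide (n = 2), Multicilin with Cas9 protein and a foxj1 guide RNA (Foxj1 CRISPR, n = 2), or Multicilin fused to the same receptor and nothing else (control, n = 3). Every RNA group thus carried Multicilin, and no RNA library of caps without it or with injected Foxn4 was analysed. The control libraries were taken over from an earlier study, so wherever the control enters, the effect of the study and that of the group cannot be told apart.

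Multiciliated cells carry many motile cilia and move fluid over the embryonic skin. Multicilin (gene MCIDAS) acts with E2F factors to switch ectoderm cells to this fate, and the forkhead factors Foxj1 and Foxn4 are among the regulators at work downstream of it. Foxj1 is known as a master regulator of genes that make cilia motile. Foxn4 is known from retina and spinal cord, where it takes part in choosing neuron types, and is also made in frog multiciliated cells. Regulatory DNA far from a gene's start, such as an enhancer, can act on a gene over long distances, and the nearest gene need not be its target. Gene models below are therefore only linked by distance: a model is linked when its start is the nearest to the centre of a kept intergenic peak and lies within 50000 bp.

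Peak heights are tags scaled to 10000000 tags per library, as the authors' peak caller HOMER wrote them. The Foxn4 plus Multicilin library held 4911853 tags, of which 11.86% were estimated to lie in peaks, and the Foxn4-alone library held 7387992 tags with an estimate of 33.51%. Each condition had 1 library, both lists used the same input library, and no ratio of heights between the lists was made. The intervals given for shares cover counting error only.

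The highest peaks show what the strongest of these regions look like. The highest of the whole Foxn4 plus Multicilin list lay at scaffold 50694:1061433-1061709, with 804.2 scaled tags with Foxn4 plus Multicilin and 2759.9 with Foxn4 alone, and it was also the highest of the Foxn4-alone list. The nearest start, of the transcription factor subunit gene TAF9, lay 116021 bp away, beyond the limit for a link. The next lay at scaffold 337825:4614596-4614872, downstream of GPX8 and 87388 bp from the MCIDAS start. It had 637.2 scaled tags with Multicilin and 706.6 alone. Its counterpart on the other copy of that locus, at scaffold 52441:12519556-12519832, stood at 521.2 with Multicilin and 414.2 alone. Both lay far above the input library, at 301.39 and 493.01 times.

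The other top regions included 2 that rose little above the input. The region 28839 bp upstream of SEC22C, at scaffold 47683:782204-782480, had 582.3 scaled tags with Multicilin but only 4.34 times the input. The region at scaffold 114358:466703-466979, whose nearest start was that of KDM4C at 168482 bp, had 563.9 and 7.02 times the input. A region 11521 bp upstream of SP7, a zinc finger factor known from bone, had 437.7 scaled tags with Multicilin and 625.3 alone. A region 13742 bp upstream of GALNT1, an enzyme that starts the sugar chains of mucins, had 429.6 with Multicilin and 567.1 alone. A region 6383 bp upstream of SOCS5, a brake on cytokine signalling, had 413.3 with Multicilin and 633.5 alone. The remaining top 10 regions lay 55447 bp from SOX7, a gene of blood vessel development, with 429.6 tags, and 870134 bp from AGPAT4, with 488.6 tags.

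Over all 10540 regions the median height with Multicilin was 30.5 scaled tags, from 12.2 to 804.2, with the middle portion between 20.4 and 48.9. This median rested on 15 reads per region, and the lowest region on 6, so single weak regions are poorly measured. The median fold over the input was 22.95, and 1205 regions (11.43%) stood below 8 times the input. The same places had a median of 60.9 scaled tags with Foxn4 alone, from 8.1 to 2759.9. Heights in the 2 libraries went together across the 10540 regions, with a Spearman correlation of 0.6256 between places that share their sequence and input, which is given as a description. Peak centres lay a median of 38 bp apart, and 6409 pairs (60.81%) within 50 bp.

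Among the highest peaks with Multicilin, intergenic ones made up the largest class, as they did in the whole list. Of the 100 highest, 50 were intergenic and all 50 were kept, against 28 at promoters (centre within 1000 bp of a start) and 22 inside gene models. Of the 1000 highest, 440 were intergenic, 433 of them kept, against 251 at promoters and 309 inside models. The whole list was 41.41% intergenic, 24.87% promoter and 33.72% inside models, so the 1000 highest stood near these shares.

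How often a peak was kept is what chose the regions, so it is given as a description with no test. With Foxn4 plus Multicilin, 10540 of 12287 intergenic peaks were kept, 85.78% (exact 95% interval 85.15 to 86.39%). Promoter peaks were kept in 91.86% (91.21 to 92.47%) and peaks inside models in 84.95% (84.23 to 85.64%). With Foxn4 alone, which had more tags and 65258 peaks, 10541 of 30808 intergenic peaks were kept, 34.22%, against 53.76% at promoters and 38.91% inside models. Kept intergenic peaks were higher in both lists: medians of 30.5 for kept and 20.4 for not kept with Multicilin, and 60.9 for kept and 20.3 for not kept with Foxn4 alone.

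The difference between positions was present at each height. The Foxn4-alone list was split into 5 equal parts by height, at 17.6, 24.4, 37.9 and 67.7 scaled tags. From the lowest part to the highest, 7.14, 14.39, 28.8, 49.93 and 81.13% of the intergenic peaks were kept. Promoter peaks of the same parts were kept in 10.56, 21.42, 40.49, 71.21 and 93.78%. Peaks inside models were kept in 8.56, 17.06, 29.99, 53.2 and 84.37%, between the other two classes in every part.

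**Figure D1:**
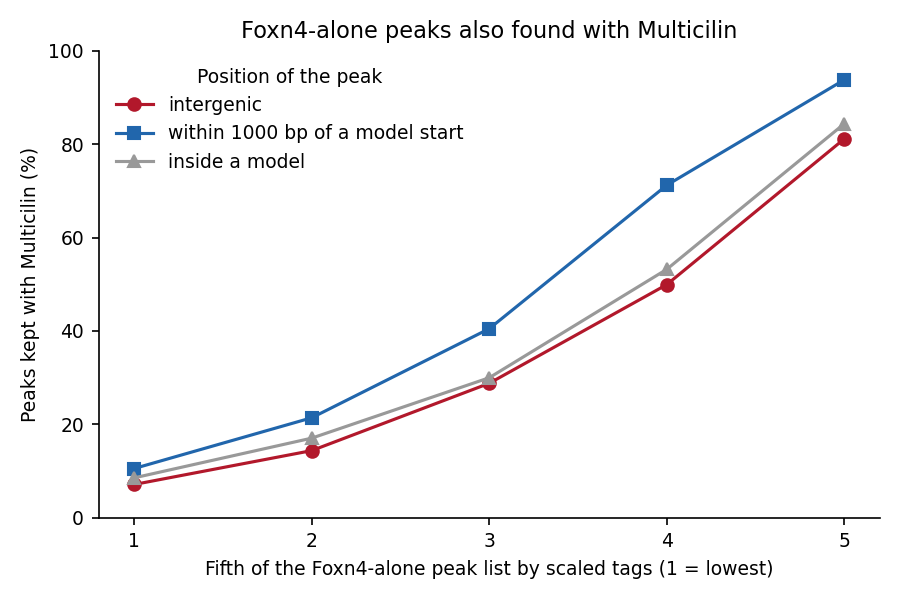
Share of Foxn4-alone peaks that overlapped a peak with Multicilin (vertical axis, %), in 5 equal parts of the Foxn4-alone list ordered by scaled tags (horizontal axis, 1 is lowest). Lines are intergenic, promoter and intragenic peaks, and the intergenic share goes from 7.14% in the lowest to 81.13% in the highest part, below promoter peaks in each.

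Of the 10540 regions, 850 (8.065%) lay on 762 scaffolds without any gene model, where no distance could be given. The other 9690 lay a median of 26945 bp from the nearest start, with the middle portion between 10237 and 68098 bp. The nearest bin, 1000 to 2000 bp, held 326 regions, and 924 lay at 2000 to 5000 bp, 1128 at 5000 to 10000 bp, 1625 at 10000 to 20000 bp, 2532 at 20000 to 50000 bp, 1581 at 50000 to 100000 bp and 1574 beyond. The median height was 30.5 scaled tags at 1000 to 2000 bp, 36.6 at 2000 to 5000 bp, 32.6 in both bins up to 20000 bp, 30.5 up to 50000 bp, 28.5 up to 100000 bp and 26.5 beyond. Within 50000 bp lay 6535 regions (62%), 4780 upstream of the linked start and 1755 downstream of it. Downstream regions had to lie past the end of the model, so this split follows in part from the rule.

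Most regions stood alone. The nearest other kept intergenic peak lay a median of 34150 bp away, and 1694 regions (16.07%) had one within 5000 bp. Chained at that distance, they formed 808 groups of at least 2, of which 70 held at least 3 and the largest 4.

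The 1000 bp limit cuts a continuous range of distances. Just outside it, and so counted, were a region 1001 bp from SLC25A38, a mitochondrial carrier, with 22.4 scaled tags with Multicilin and 28.4 alone. Others were 1005 bp from INSM1, a neuroendocrine factor, with 57.0 with Multicilin, and 1005 bp from NADK, with 55.0. Just inside it, and so left out as promoter peaks, were peaks 999 bp from POU6F1 with 42.8, 999 bp from ENTPD2 with 16.3 and 989 bp from DIO3 with 20.4.

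A heavily bound neighbourhood was the locus that holds MCIDAS, with regions of both scaffold copies among the 10 highest. Those regions lay 70069 and 87388 bp from the MCIDAS start, nearer to CDC20B and GPX8. In vertebrates MCIDAS lies beside CCNO and CDC20B, 2 genes that act in multiplying centrioles in multiciliated cells. The gene models hold this locus as 2 copies, on scaffolds 52441 and 337825, and RefSeq's Xenopus laevis assembly 10.1 places mcidas.L beside ccno.L, cdc20b.L and gpx8.L on chromosome 1L and mcidas.S beside ccno.S and gpx8.S on 1S. In the stretch plotted, each copy held 4 kept intergenic peaks.

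On scaffold 52441 a region 4437 bp upstream of the MCIDAS start, at 12594062 to 12594338, had 256.5 scaled tags with Multicilin and 192.2 alone. A second region between MCIDAS and CCNO, 11606 bp upstream of MCIDAS at 12601231 to 12601507, had 164.9 with Multicilin and 46.0 alone. The other 2 lay on the far side of MCIDAS, 48302 and 70069 bp from its start towards CDC20B, with 75.3 and 521.2 with Multicilin. The one with 521.2 is the region upstream of CDC20B among the 10 highest. Another peak upstream of MCIDAS, 7611 bp away with 142.5 scaled tags, was found with Multicilin but overlapped no Foxn4-alone peak, so it is not among the regions counted here.

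On scaffold 337825 the layout was similar. A region 6843 bp upstream of MCIDAS, at 4708827 to 4709103, had 124.2 scaled tags with Multicilin and 54.1 alone. A second, 13246 bp upstream of MCIDAS at 4715230 to 4715506, had 289.1 with Multicilin and 184.1 alone, and lay 12684 bp from the CCNO start. The far-side regions lay 87388 and 93312 bp from the MCIDAS start, with 637.2 and 109.9 with Multicilin. Promoter peaks stood beside them: CCNO had one at its start on both copies, with 130.3 scaled tags with Multicilin on scaffold 52441 and 105.9 on scaffold 337825, and CDC20B had one with 126.2. Near the MCIDAS start the lists differed. On scaffold 52441 Foxn4 alone had a promoter peak 709 bp upstream of it with 119.1 scaled tags and an intergenic peak 3298 bp upstream with 146.2, and neither was kept. On scaffold 337825 Foxn4 alone had intergenic peaks 2903, 5557 and 9947 bp upstream that were not kept, with 71.7, 105.6 and 81.2.

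**Figure D2:**
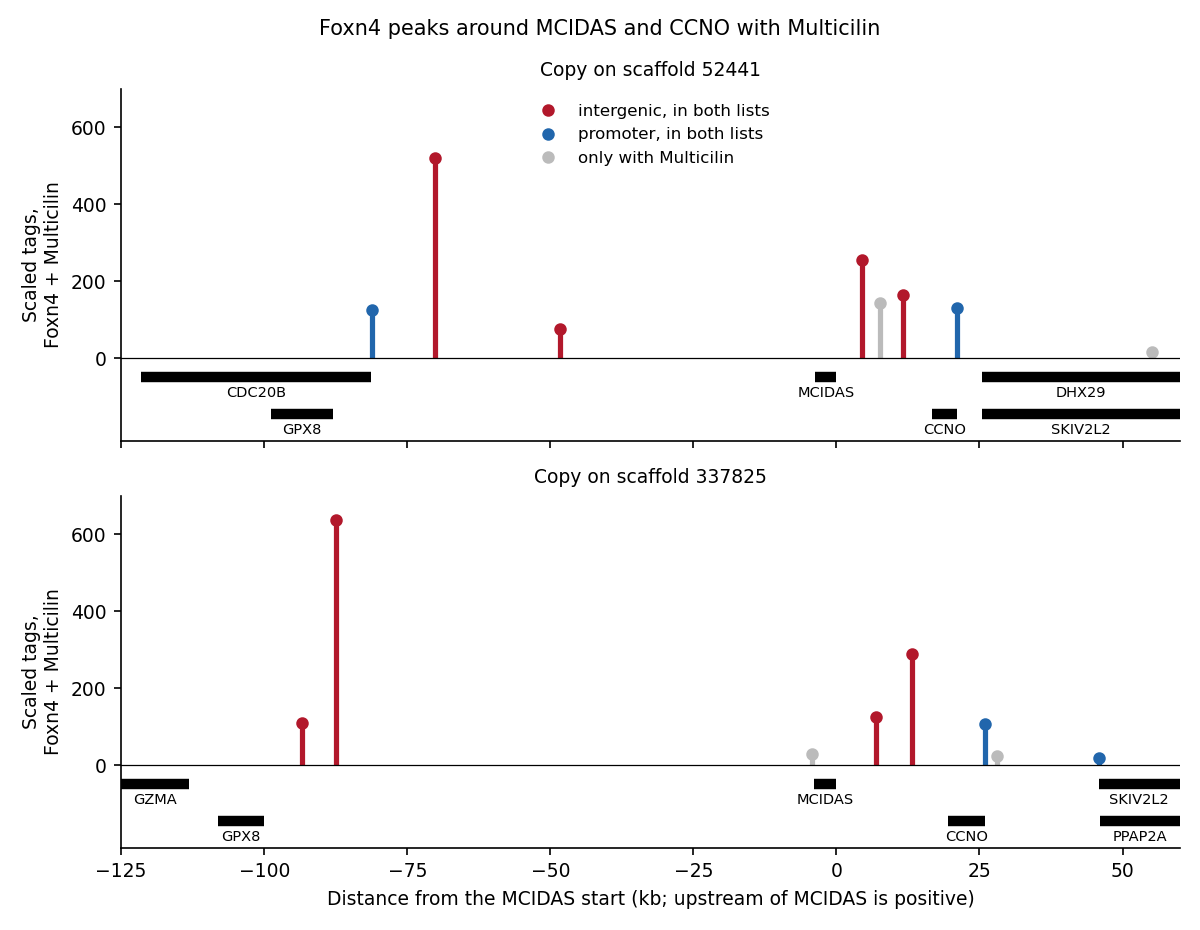
Scaled tags with Foxn4 plus Multicilin (vertical axis) against distance from the MCIDAS start in kb (horizontal axis, upstream positive), for the copies on scaffolds 52441 and 337825. Each bar is a peak, by class, and gene models are drawn below; the tallest bar of each copy, at 521.2 and 637.2 scaled tags, lies on the CDC20B and GPX8 side of MCIDAS.

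Other regulators of the multiciliated program were also linked. Of 35 models on a list of such regulators, 17 had at least 1 kept intergenic peak, 26 in all. FOXJ1 on scaffold 106323 had 5, the highest 8516 bp upstream at 1163724 to 1164000, with 260.6 scaled tags with Multicilin and 473.7 alone. Another lay 2524 bp upstream with 67.2 with Multicilin, and 3 lay past the gene with 109.9, 57.0 and 97.7. FOXJ1 on scaffold 71264 had 4, at 2365 and 9844 bp upstream with 79.4 and 77.4 with Multicilin and 2 past the gene with 59.0 and 30.5. Both FOXJ1 copies also had a kept peak at their own start.

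The regions at FOXN4's own loci ranged from 18.3 to 42.8 scaled tags, around the median of 30.5 over all kept intergenic peaks. The model on scaffold 44061 had 2, 5715 and 13839 bp upstream, with 20.4 and 18.3 scaled tags with Multicilin. The model on scaffold 143664 had 1, 42588 bp upstream, with 42.8. RFX2, a factor that acts with Foxj1 on cilium genes, had 1 region 12433 bp upstream with 42.8 with Multicilin and 82.6 alone. TRRAP, a scaffold of histone acetyltransferases, had 1 region 2694 bp upstream with 81.4. TP73, a p53 relative needed for multiciliated cells in mammals, had 1 region 3941 bp from its start with 52.9 on scaffold 208071 and 1 with 18.3 on scaffold 87017.

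Forkhead genes, the family of Foxn4 itself, were often linked: 33 of 70 models carried 60 regions. The most were at FOXI1 genes. The labels of the gene models give FOXI1 to 6 linked models, in pairs on scaffolds 1168 and 3467 and singly on 48253 and 179377, so this symbol covers more than 1 gene. On scaffold 1168 a region 4827 bp upstream of the model starting at 1527034 had 152.7 scaled tags with Multicilin and 362.8 alone, and the neighbouring model at 1510409 had 4 regions of up to 77.4. On scaffold 3467 the highest region, past the model at 436433, had 120.1 with Multicilin and 297.8 alone. FOXI1 on scaffold 48253 had 4 regions of up to 71.3, and on scaffold 179377 3 of up to 26.5. In frog skin, Foxi1 directs the ionocyte fate. FOXA1 on scaffold 265107 reached 124.2, FOXC1 on scaffold 128723 reached 69.2 and FOXD3 on scaffold 53042 reached 52.9.

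Whether lists of genes with known roles were linked to these regions differed widely from list to list, and is described here without a test. Of all 24383 models, 4431 (18.17%) were linked to a kept intergenic peak and 29.28% had a kept peak at their own start. Few genes of axonemes and motility were linked and most had a promoter peak: 12 of 83 models (14.46%) were linked, while 81.93% had a kept peak at their start. Ciliary transport genes gave 12.5% linked and 76.79% with a promoter peak, centriole genes 10.91 and 72.73%, and genes of the transition zone, the gate at the base of the cilium, 21.74 and 73.91%. The list of multiciliated cell regulators had both, 48.57% linked and 68.57% with a promoter peak.

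Developmental genes were linked more often than they had promoter peaks. Epidermal and basal cell genes had 55 of 88 models linked (62.5%) and 31.82% with a promoter peak. Notch pathway genes gave 57.81 and 39.06%, genes of BMP, Wnt, FGF and hedgehog signalling 55.93 and 25.42%, and neural and neural crest genes 52.63 and 20.18%. Forkhead genes gave 47.14 and 40%, ionocyte markers 40 and 21.82%, mesendoderm markers 40 and 6.667%, and markers of small secretory and goblet cells 30.43 and 13.04%. Cell cycle genes, at 23.26 and 37.21%, stood near all models.

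**Figure D3:**
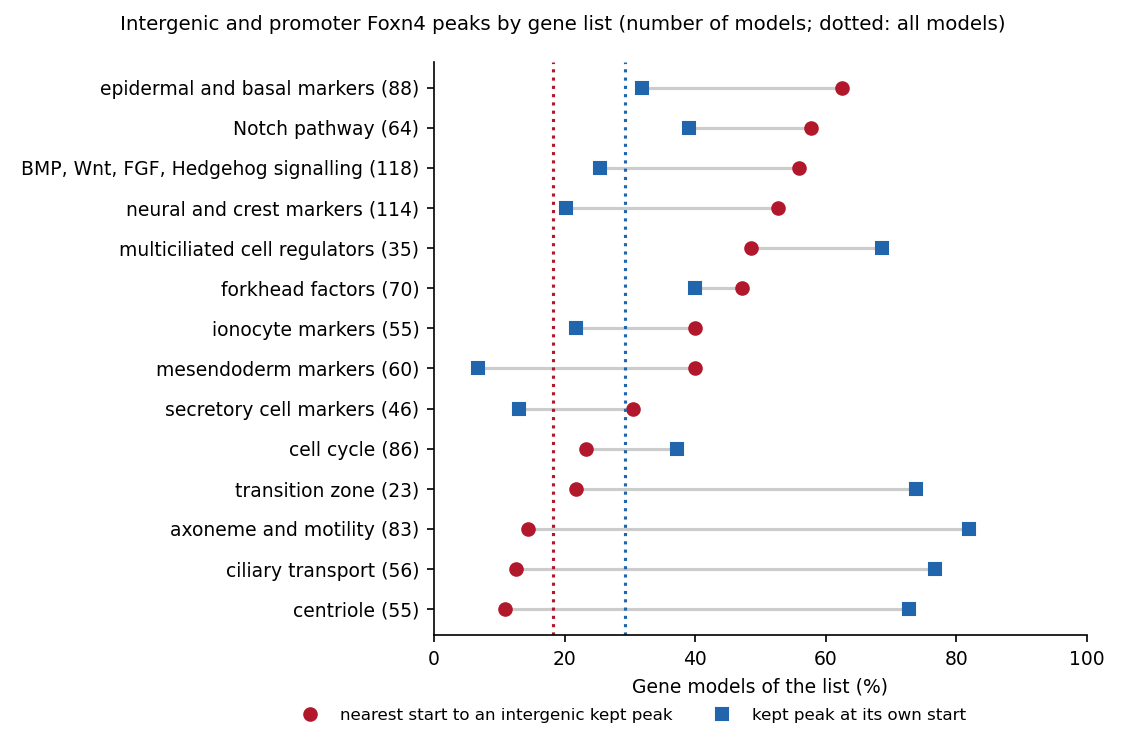
Share of gene models (horizontal axis, %) linked to a kept intergenic peak (circles) and with a kept peak at their own start (squares), for each gene list with its number of models (vertical axis). Dotted lines are all models, 18.17 and 29.28%; the axoneme list has 14.46% linked and 81.93% with a promoter peak, the epidermal list 62.5 and 31.82%.

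Space between genes moved with these shares for some lists and not for others, and its part in them was not tested. Centriole genes had a median of 3625 bp between their start and the next model upstream, ciliary transport genes 8288 bp and axoneme genes 10893 bp, against 18563 bp over all models. Epidermal genes had 38446 bp, neural genes 54242.5 bp, signalling genes 88056.5 bp and mesendoderm markers 90829 bp. Ionocyte markers, with 19160 bp, had 40% of models linked, the same share as mesendoderm markers. Multiciliated cell regulators had 23944.5 bp and 48.57% linked, and Notch genes 26236.5 bp and 57.81%. Links to intergenic peaks found with Foxn4 alone but not with Multicilin went the same way as links to kept peaks for the lists given here. Such a link was present for 18.07% of axoneme, 55.68% of epidermal, 62.71% of signalling and 71.05% of neural models, against 27.55% of all models. The neural list thus had more models linked to peaks that were not kept (71.05%) than to kept ones (52.63%), and the epidermal list fewer (55.68 and 62.5%).

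The models with most kept intergenic peaks included feedback regulators of signalling. BAMBI, a decoy receptor that dampens BMP signalling, had 9 on scaffold 17434 and 8 on scaffold 52573, the highest at 356.3 and 207.7 scaled tags with Multicilin. ZNF217, a zinc finger repressor, also had 9 and IER5L and NRARP 8 each. NRARP is a feedback inhibitor of Notch. Other examples, picked for their number of regions after values were seen, were AXIN2 and SMAD7, feedback inhibitors of Wnt and TGF-beta signalling, and the epidermal regulators MSX1 and PRDM1, with 7 each. Of the linked models 3129 had 1 region, 823 had 2 and 479 had 3 or more.

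Xenopus laevis carries paired copies of many genes, which gives a comparison between places that share ancestry. Of 6530 symbols with exactly 2 models on 2 scaffolds, 522 had both copies linked, 1500 had 1 and 4508 none. Among linked models of these symbols, 41.04% had a linked copy, where 19.48% of all models of these symbols were linked. In 432 of the 522 pairs the highest regions lay on the same side of the start, and in 225 (43.1%) they lay on the same side at distances within 1.5 times of each other. Since 4780 of the 6535 regions within 50000 bp lay upstream, regions of unrelated genes would also often share a side. The share expected for such pairs was not computed. The heights of the paired regions had a Spearman correlation of 0.3763 over 522 pairs, as a description. Copies that have stayed alike in sequence can share reads, which the files do not resolve.

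Several of the highest pairs were close matches. ID3, an inhibitor of helix-loop-helix factors, had 331.9 scaled tags with Multicilin 2052 bp upstream on scaffold 98463 and 356.3 at 2252 bp upstream on scaffold 8834. ESRP1, a splicing regulator of epithelia, had 256.5 at 14261 bp and 281.0 at 16253 bp. CPEB2 had 242.3 at 16081 bp and 236.2 at 17540 bp, and RAP2B 209.7 at 6429 bp and 199.5 at 6366 bp. FZD10, a Wnt receptor, had its regions past the gene on both copies, with 132.3 at 17263 bp and 134.4 at 17384 bp. IER5 was unlike these: its highest region lay 25095 bp downstream on one copy with 297.2 and 4412 bp upstream on the other with 238.2.

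RNA of the linked models was then compared between the groups. Library sizes were 8265823 to 22041340 estimated counts. Control replicate 2 stood apart from the other controls: MCIDAS on scaffold 52441 was at 169.2 CPM (TMM-scaled counts relative to library size) in it, against 449.9 and 547.1 in the others. FOXN4 on scaffold 44061 was at 78.98 against 388.2 and 510.6, and FOXI1 on scaffold 48253 at 37.18 against 9.392 and 10.1. Calls below were therefore also made without this library. Whether replicates stem from different clutches is not given in the labels, and p-values therefore cover just the spread among these samples. In these whole caps fewer cells of a type and less RNA per cell cannot be told apart. Reads of the injected Multicilin RNA and of the frog's own MCIDAS RNA were not separated either.

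Neither FOXJ1 nor MCIDAS was called lower in the Foxn4 groups. FOXJ1 on scaffold 106323 stood at 585.6 and 562.4 CPM with Foxn4 CRISPR, 583.9 and 783.7 with the morpholino and 625.9 and 714.7 with Foxj1 CRISPR, against 635, 471.4 and 727.5 in the control. The groups overlapped, and the log2 fold changes were -0.09 ± 0.25, 0.16 ± 0.25 and 0.13 ± 0.25 (standard error, adjusted p = 0.8134, 0.6165 and 0.6955, edgeR). FOXJ1 on scaffold 71264 gave 0.2 ± 0.23, 0.41 ± 0.23 and 0.53 ± 0.23 (adjusted p = 0.561, 0.1676 and 0.09056, edgeR). Its Foxj1 CRISPR libraries, at 1045.5 and 1065.8 CPM, lay above every control, at 721.7, 585.2 and 887.8. CRISPR or a morpholino need not change the amount of the targeted RNA, so the FOXJ1 and FOXN4 levels do not check the labels. CCNO was not called in any comparison with the control on either scaffold.

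MCIDAS on scaffold 337825 was called higher with the morpholino and with Foxj1 CRISPR, and both calls ended in some leave-outs. It stood at 1089.7 and 1091.3 CPM with Foxn4 CRISPR, 1560.2 and 1135.4 with the morpholino and 1436.1 and 1308.8 with Foxj1 CRISPR, against 465, 128.1 and 717.4 in the control. Every perturbed library was above every control. The log2 fold changes were 1.32 ± 0.51 (adjusted p = 0.08681), 1.63 ± 0.51 (adjusted p = 0.02588) and 1.65 ± 0.51 (adjusted p = 0.02697) in edgeR. The morpholino call ended without morpholino replicate 1 (adjusted p = 0.1458), replicate 2 (0.05417) or control replicate 1 (0.05726). The Foxj1 CRISPR call ended without Foxj1 CRISPR replicate 1 (adjusted p = 0.1113), replicate 2 (0.07243) or control replicate 1 (0.05746). Without control replicate 2 all 3 were called, at 0.89, 1.18 and 1.23 with adjusted p = 0.03132, 0.005169 and 0.004447. MCIDAS on scaffold 52441 was then called higher with the morpholino (0.64, adjusted p = 0.0275, edgeR) and with Foxj1 CRISPR (0.58, 0.04294). With Foxn4 CRISPR that model gave 0.27 (adjusted p = 0.3425, edgeR).

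CDC20B, linked to the region with 521.2 scaled tags, stood at 168.4 and 179.4 CPM with Foxn4 CRISPR, 257.5 and 230.8 with the morpholino and 132.5 and 164 with Foxj1 CRISPR, against 242.1, 73.11 and 331.1 in the control, and was not called. Without control replicate 2 it was lower with Foxn4 CRISPR (log2 -0.72, adjusted p = 0.04438, edgeR) and with Foxj1 CRISPR (-0.94, adjusted p = 0.009049). RFX2 was at 195.6 and 194.1 CPM with Foxn4 CRISPR, 266.2 and 244.8 with the morpholino and 165.9 and 161.5 with Foxj1 CRISPR, against 173.6, 109.8 and 151.7 in the control. It rose with the morpholino (0.82 ± 0.23, adjusted p = 0.01681), a call that ended without morpholino replicate 1 (adjusted p = 0.08327). Of the 16 tested linked regulator models, 0 were called with Foxn4 CRISPR, 2 rose and 2 fell with the morpholino, and 1 rose and 3 fell with Foxj1 CRISPR. Over all 19058 tested models 12.6, 23.9 and 19.8% rose and 10.7, 21.1 and 20.7% fell in these comparisons. For the 0 calls with Foxn4 CRISPR, 1 model was higher and 1 lower at an unadjusted p under 0.05 in edgeR, and DESeq2 also called 0. Without control replicate 2, 1 rose and 1 fell with Foxn4 CRISPR, 4 rose and 3 fell with the morpholino and 2 rose and 4 fell with Foxj1 CRISPR.

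Over all 3748 tested linked models, falls were more frequent and rises less frequent than over all 19058 tested models, which include them. With Foxn4 CRISPR against the control, 448 linked models rose (12.0%) and 448 fell (12.0%), against 12.6 and 10.7% of all tested models. With the morpholino, 793 rose (21.2%) and 981 fell (26.2%), against 23.9 and 21.1% of all. With Foxj1 CRISPR, 722 rose (19.3%) and 885 fell (23.6%), against 19.8 and 20.7% of all. Of the 15310 tested models not linked, 12.7, 24.6 and 19.9% rose and 10.3, 19.8 and 20.0% fell with Foxn4 CRISPR, the morpholino and Foxj1 CRISPR. The median log2 fold changes of linked models were -0.09, -0.15 and -0.1 in these 3 comparisons, and those of all tested models -0.03, 0.08 and 0.01. The comparisons share the control libraries. Many of these calls did not hold every time when each of the 9 RNA libraries was left out in turn. Leaving out a library also made its group smaller, which lowers the power of the test. Whether lost calls depended on a particular library or on the smaller group was not tested.

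Fewer linked models were called between the Foxn4 groups and Foxj1 CRISPR than against the control. The control libraries, taken over from an earlier study, still entered the shared estimate of spread in this fit. Against Foxj1 CRISPR, 47 linked models were higher (1.25%) and 2 lower (0.0534%) with Foxn4 CRISPR, where 1.43 and 0.021% of all tested models were called. With the morpholino, 125 were higher (3.34%) and 144 lower (3.84%), against 4.7 and 2.7% of all. Without control replicate 2 the counts were 98 higher and 11 lower with Foxn4 CRISPR, and 183 and 268 with the morpholino. DESeq2, over 4373 linked models, called 141 and 15 with Foxn4 CRISPR, and 191 and 305 with the morpholino. In every leave-out, 0 of the Foxn4 CRISPR calls held, by edgeR, and 13 higher and 15 lower morpholino calls did. At an unadjusted p under 0.05, 332 linked models were higher and 133 lower with Foxn4 CRISPR in edgeR, and 347 and 148 in DESeq2. With replicate number as a block, 0 and 0 of the Foxn4 CRISPR calls against Foxj1 CRISPR remained. Deviations of same-numbered libraries of these 2 groups correlated at 0.515, and the labels do not say whether the numbers mark a shared batch.

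**Figure D4:**
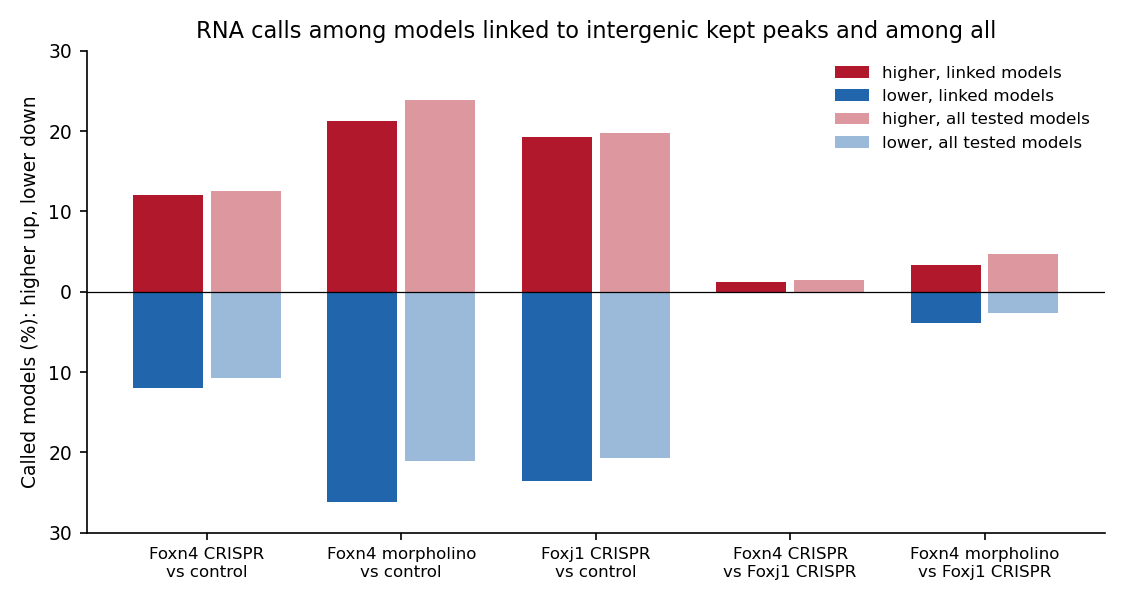
Share of tested models called at adjusted p under 0.05 (vertical axis, %, higher upwards and lower downwards) in each of the 5 comparisons (horizontal axis), for linked models (dark) and all tested models (pale). With the morpholino 26.2% of linked models fell, against 21.1% of all tested.

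Level moved with these shares. Linked models had a median of 11.5 TPM (a level per transcript length) in the control, against 7.948 for all tested models, and highly expressed models were called lower more often. Among models under 1 TPM in the control, 2.28% of linked and 1.97% of all tested models fell with the morpholino. The shares were 14.3 and 13.8% at 1 to 10 TPM, 36.1 and 30.8% at 10 to 100 TPM and 48.8 and 45.1% at 100 TPM or more. At 10 to 100 TPM, 16.6% of linked and 14.6% of all tested models fell with Foxn4 CRISPR, and 30.9 and 28.0% with Foxj1 CRISPR. At 100 TPM or more the order turned, at 17.5 and 19.0% and at 43.8 and 48.1%. There 7.08, 10.6 and 10.4% of linked models rose with Foxn4 CRISPR, the morpholino and Foxj1 CRISPR, against 4.66, 7.75 and 7.47% of all tested. At 10 to 100 TPM linked models rose less often than all tested models in these comparisons. Models whose nearest region lay 1000 to 5000 bp away fell with the morpholino in 29.2%, those at 5000 to 20000 bp in 26.0% and those at 20000 to 50000 bp in 23.4%, with median control levels of 14.7, 11.94 and 8.606 TPM. At these distances 12.0, 12.7 and 10.8% fell with Foxn4 CRISPR and 24.0, 24.3 and 22.0% with Foxj1 CRISPR.

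Models with higher peaks also fell more often, and again had higher levels. Where the highest region was above 61.1 scaled tags, 281 of 898 tested models (31.3%) fell with the morpholino and 173 (19.3%) rose, at a median of 20.66 TPM in the control. Where it was 22.4 or less, 193 of 979 (19.7%) fell and 232 (23.7%) rose, at 7.079 TPM. The falls in these groups were 13.4 and 10.1% with Foxn4 CRISPR and 27.4 and 18.6% with Foxj1 CRISPR. By kept promoter peak, 28.1% of linked models with one fell with the morpholino and 24.9% of those without, at 21.96 and 7.362 TPM. With Foxn4 CRISPR the order turned, at 10.9 and 12.6%, and with Foxj1 CRISPR the shares were 24.5 and 23.1%. Among models with 3 or more regions, 16.5, 23.4 and 24.6% rose with Foxn4 CRISPR, the morpholino and Foxj1 CRISPR. In the same order 10.7, 28.3 and 20.5% of them fell, at a median of 18.22 TPM in the control. The part of level in these shares was not tested.

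Genes linked to the highest regions gave mixed results. GALNT1 stood at 27.59 and 42.8 CPM with Foxn4 CRISPR, 11.4 and 20.26 with the morpholino and 20.84 and 36.21 with Foxj1 CRISPR, against 129.2, 72.38 and 129.6 in the control. All perturbed libraries lay below all controls. The log2 fold change was -2.79 ± 0.42 with the morpholino (adjusted p = 0.0008372, edgeR), and this call held in every leave-out. It was -1.65 ± 0.4 with Foxn4 CRISPR (adjusted p = 0.01594), lost without CRISPR replicate 1 (0.1525) or 2 (0.05582), and -1.95 ± 0.4 with Foxj1 CRISPR (adjusted p = 0.004178), lost without Foxj1 CRISPR replicate 1 (0.05491).

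SOCS5 stood at 90.97 and 90.35 CPM with Foxn4 CRISPR, 30.06 and 47.38 with the morpholino and 57.15 and 69.62 with Foxj1 CRISPR, against 113.8, 69.44 and 112.7 in the control. It fell with the morpholino (log2 -1.35 ± 0.3, adjusted p = 0.005504, edgeR), and the call ended without morpholino replicate 1 (0.05449). Its values were -0.12 ± 0.29 with Foxn4 CRISPR and -0.64 ± 0.29 with Foxj1 CRISPR (adjusted p = 0.7848 and 0.1059). SOCS5 was also called lower with Foxj1 CRISPR without control replicate 2 (-0.83, adjusted p = 0.02458, edgeR). SP7, at 1393 and 1167.7 CPM with Foxn4 CRISPR, 856.7 and 1343.1 with the morpholino and 792.7 and 872.1 with Foxj1 CRISPR, against 1441.6, 879.8 and 1638.8 in the control, was not called. It was lower with Foxj1 CRISPR without control replicate 2 (-0.88, adjusted p = 0.01646, edgeR). SEC22C, a vesicle transport protein whose region rose little above the input, had 14.46 and 21.32 CPM with Foxn4 CRISPR against 3.173, 2.031 and 1.32 in the control (3.04 ± 0.67, adjusted p = 0.01097). That call ended without CRISPR replicate 2 (adjusted p = 0.07209).

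With the morpholino, 4 FOXI1 models rose and 2 fell. The model at 1510409 on scaffold 1168 stood at 72.89 and 57.07 CPM with Foxn4 CRISPR, 225.8 and 179.6 with the morpholino and 141.4 and 111.7 with Foxj1 CRISPR, against 13.83, 4.908 and 13.54 in the control. Every perturbed library was above every control. It rose by 2.59 ± 0.39, 4.24 ± 0.41 and 3.56 ± 0.4 on the log2 scale (adjusted p = 0.00179, 0.000115 and 0.0002524, edgeR). The model at 436433 on scaffold 3467 rose likewise, by 2.59 ± 0.33, 4.88 ± 0.35 and 4.1 ± 0.34, as did the second model on each of these scaffolds. These calls held in every leave-out and every alternative tried.

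On scaffold 48253, FOXI1 stood at 27.47 and 46.21 CPM with Foxn4 CRISPR, 5.01 and 2.582 with the morpholino and 22.64 and 25.17 with Foxj1 CRISPR, against 9.392, 37.18 and 10.1 in the control. The morpholino libraries were the lowest, and the log2 fold change was -2.34 ± 0.64 with the morpholino (adjusted p = 0.0139), lost without morpholino replicate 2 (0.1085). Without control replicate 2 the values were 1.92 with Foxn4 CRISPR (adjusted p = 0.006072), -1.4 with the morpholino (0.0134) and 1.3 with Foxj1 CRISPR (0.01545). The difference between Foxn4 CRISPR and the morpholino was not tested. FOXI1 on scaffold 179377 had 20.72 and 49.22 CPM with Foxn4 CRISPR, 2.947 and 3.312 with the morpholino and 19.39 and 20.02 with Foxj1 CRISPR, against 11.42, 48.01 and 11.59 in the control. Its log2 fold change with the morpholino was -2.91 ± 0.7 (adjusted p = 0.00746), lost without morpholino replicate 1 (0.06332) or 2 (0.05051). It was called higher with Foxn4 CRISPR without control replicate 2 (1.61, adjusted p = 0.01394, edgeR).

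The list of ionocyte markers includes the FOXI1 models, so its counts repeat the FOXI1 calls given above. Of its 21 tested linked models, 5 rose and 0 fell with Foxn4 CRISPR, 5 rose and 11 fell with the morpholino, and 4 rose and 4 fell with Foxj1 CRISPR, with median log2 fold changes of 0.1, -2.03 and -0.76. With control replicate 2 left out, 8 rose and 1 fell with Foxn4 CRISPR, 4 rose and 9 fell with the morpholino and 6 rose and 3 fell with Foxj1 CRISPR. With every library included, 12.6, 23.9 and 19.8% of all tested models rose and 10.7, 21.1 and 20.7% fell. Their median log2 fold changes were -0.03, 0.08 and 0.01. Without control replicate 2, 14.2% of all tested models rose and 12.5% fell with Foxn4 CRISPR. In that setting 22.7% fell with the morpholino, and 22.0% rose and 21.7% fell with Foxj1 CRISPR.

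FOXQ1, another forkhead gene, fell. On scaffold 274508 it had 1.325 and 0.3963 CPM with Foxn4 CRISPR, 0.09824 and 0.2245 with the morpholino and 0.2894 and 0.5152 with Foxj1 CRISPR, against 10.92, 21.94 and 14.4 in the control. Its log2 fold changes were -4.26 ± 0.58, -6.42 ± 0.69 and -5.26 ± 0.62 (adjusted p = 0.001162, 0.0001791 and 0.0003077, edgeR), and they held in every leave-out. This model was at 1.325 CPM or less in every perturbed library. It entered the test through the control and then had to differ, so these p-values and leave-outs lend no support. Its copy on scaffold 128723 fell with the morpholino by 3.38 ± 0.43 (adjusted p = 0.0003605), to 4.224 and 6.736 CPM against 58.51, 31.65 and 82.39 in the control. The regions near these genes had 16.3 scaled tags on scaffold 274508 and 34.6 on 128723, below and above the median of 30.5.

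FOXD3, a neural crest factor, gave values with the morpholino that depended on how reads were counted. On scaffold 53042 it stood at 2.771 and 2.061 CPM with Foxn4 CRISPR, 25.25 and 38.51 with the morpholino and 1.953 and 3.018 with Foxj1 CRISPR, against 17.96, 20.87 and 28.92 in the control. Both CRISPR groups were below every control and the morpholino libraries were not, a difference that was tested against Foxj1 CRISPR only. The log2 fold changes were -3.23 ± 0.39 with Foxn4 CRISPR (adjusted p = 0.0006683), 0.5 ± 0.32 with the morpholino (0.2185) and -3.18 ± 0.38 with Foxj1 CRISPR (0.000325) in edgeR. Morpholino against Foxj1 CRISPR gave 3.68 ± 0.4 (adjusted p = 0.001582), not called with uniquely matching reads only (2.38, adjusted p = 0.1735). With those reads FOXD3 was called lower with the morpholino too (-2.81, adjusted p = 0.006787, edgeR). Over the 25 tested linked forkhead models, 5 rose and 4 fell with Foxn4 CRISPR, 5 rose and 6 fell with the morpholino and 5 rose and 6 fell with Foxj1 CRISPR. The rises were 7, 8 and 8 and the falls 3, 5 and 6 without control replicate 2. With every library included, 12.6, 23.9 and 19.8% of all tested models rose and 10.7, 21.1 and 20.7% fell.

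Linked genes of axonemes and motility were few, highly expressed and often called lower. Of 12 tested linked models, 0 rose and 4 fell with Foxn4 CRISPR, 0 rose and 11 fell with the morpholino, and 0 rose and 12 fell with Foxj1 CRISPR, with medians of -0.93, -1.49 and -2.73. Each of the 12 was at 100 TPM or more in the control, and of all tested models at that level 4.66, 7.75 and 7.47% rose and 19.0, 45.1 and 48.1% fell. Leaving out control replicate 2 gave falls of 7 with Foxn4 CRISPR, 11 with the morpholino and 12 with Foxj1 CRISPR. Of all tested models, at any level, 12.5, 22.7 and 21.7% fell in that setting. Against Foxj1 CRISPR, 4 were higher and 0 lower with Foxn4 CRISPR (median 1.28), and 4 were higher and 0 lower with the morpholino (median 0.71). Of all tested models at 100 TPM or more, 8.25 and 8.53% were higher and 0 and 3.76% lower in these comparisons. With replicate number as a block, 0 linked models were called between Foxn4 CRISPR and Foxj1 CRISPR. Of these 12 models 10 also had a kept promoter peak, and the highest region of each had a median of 29.5 scaled tags.

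TEKT3, a protein inside ciliary microtubules, had the most negative log2 fold change of these 12 with Foxn4 CRISPR. It stood at 35.18 and 43.12 CPM with Foxn4 CRISPR, 11.89 and 30.25 with the morpholino and 7.741 and 15.82 with Foxj1 CRISPR, against 348.9, 238.3 and 395.5 in the control. The log2 fold changes were -3.06 ± 0.47, -3.95 ± 0.49 and -4.8 ± 0.52 (adjusted p = 0.002051, 0.0003382 and 0.0002181, edgeR) and held in every leave-out. Its 2 regions reached 28.5 scaled tags, the nearer 15670 bp away. SPEF2, of the central pair of microtubules, stood at 304.7 and 287.6 CPM with Foxn4 CRISPR, 174.3 and 234.3 with the morpholino and 165.7 and 171.2 with Foxj1 CRISPR, against 742.1, 466.5 and 694.4 in the control. Its fall of 1.63 ± 0.27 with the morpholino held (adjusted p = 0.001249), and that of 1.1 ± 0.26 with Foxn4 CRISPR did not without CRISPR replicate 1 (adjusted p = 0.1167) or 2 (0.1184).

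The strongest region among motility genes lay 14365 bp from SPAG6 on scaffold 155082, with 112.0 scaled tags. SPAG6, a central pair protein, stood at 277.1 and 284 CPM with Foxn4 CRISPR, 89.11 and 193.2 with the morpholino and 150.8 and 179.5 with Foxj1 CRISPR, against 529.1, 355.9 and 896.3 in the control. It fell with the morpholino (log2 -2.07 ± 0.43, adjusted p = 0.003977, edgeR), a call that held in every leave-out, and with Foxn4 CRISPR its value was -1.08 ± 0.42 (adjusted p = 0.08421). It was called lower with Foxn4 CRISPR as well without control replicate 2 (-1.34, adjusted p = 0.0254). DNAH6, a dynein heavy chain with a region of 95.7 scaled tags 4687 bp upstream, stood at 507.4 and 616.7 CPM with Foxn4 CRISPR, 227.6 and 346.7 with the morpholino and 3.834 and 53.36 with Foxj1 CRISPR, against 1427.8, 977.5 and 1099.1 in the control. The Foxj1 CRISPR libraries were far below all others (-5.35 ± 0.92, adjusted p = 0.001644), and the Foxn4 groups, at -1.06 ± 0.73 and -2.02 ± 0.76, were not called (adjusted p = 0.3107 and 0.05227).

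Genes of ciliary transport, centrioles and the transition zone had few linked models. Of 7 tested transport models, 0 rose and 0 fell with Foxn4 CRISPR, 1 rose and 2 fell with the morpholino and 1 rose and 4 fell with Foxj1 CRISPR. At an unadjusted p under 0.05 in edgeR, 1 transport model was higher and 2 lower with Foxn4 CRISPR, and DESeq2 called 0 and 1. Of 6 centriole models, 1 fell with Foxj1 CRISPR and 0 were called with Foxn4 CRISPR or the morpholino. At an unadjusted p under 0.05 in edgeR, 0 of these 6 passed with Foxn4 CRISPR and 1 was lower with the morpholino, and DESeq2 called 0 and 1. Of 5 models of the transition zone, 1 fell with Foxn4 CRISPR, 2 with the morpholino and 4 with Foxj1 CRISPR. Among all tested models 12.6, 23.9 and 19.8% rose and 10.7, 21.1 and 20.7% fell in these comparisons. The falls with Foxn4 CRISPR were 2 of 7 transport, 1 of 6 centriole and 3 of 5 transition zone models without control replicate 2. In that setting 12.5% of all tested models fell with Foxn4 CRISPR. IFT20, which sends cargo from the Golgi to the cilium, had the strongest region of the transport list, 154.7 scaled tags at 28829 bp. It stood at 56.39 and 59.21 CPM with Foxn4 CRISPR, 71.82 and 53.89 with the morpholino and 26.7 and 32.09 with Foxj1 CRISPR, against 68.92, 62.84 and 102.9 in the control. It fell with Foxj1 CRISPR (log2 -1.41 ± 0.28, adjusted p = 0.003529, edgeR), lost without Foxj1 CRISPR replicate 1 (0.05172). CEP63, a centriole protein with 5 regions of up to 152.7 scaled tags, stayed between 1.965 and 3.459 CPM in all 9 libraries.

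Tested linked models of the Notch pathway and of signalling gave more rises than falls, at low levels in the control. Of 32 tested linked Notch models, 7 rose and 0 fell with Foxn4 CRISPR, 15 rose and 2 fell with the morpholino and 18 rose and 1 fell with Foxj1 CRISPR, with medians of 1.2, 1.43 and 1.83. NOTCH1, the receptor, with 4 regions, stood at 35.66 and 39.87 CPM with Foxn4 CRISPR, 29.08 and 73.76 with the morpholino and 50.06 and 51.37 with Foxj1 CRISPR, against 9.265, 20.03 and 8.836 in the control. The rise with Foxn4 CRISPR, 1.57 ± 0.43 on the log2 scale (adjusted p = 0.02602), ended without either CRISPR replicate (0.09411 and 0.1225) and without control replicate 1 (0.06987) or 3 (0.0701). Its rise of 1.99 ± 0.43 with Foxj1 CRISPR held in every leave-out (adjusted p = 0.005045, edgeR). The rise with the morpholino, 2.02 ± 0.43 (adjusted p = 0.004255), ended without morpholino replicate 2 (0.06054). NRARP, HES1 and LFNG, with 8, 6 and 6 regions, were not called with Foxn4 CRISPR. Their values were -0.03 ± 0.31, 0.13 ± 0.41 and 0.72 ± 0.35 (adjusted p = 0.9581, 0.8376 and 0.1537, edgeR). NRARP and LFNG rose with the morpholino (0.89 and 1.28, adjusted p = 0.03193 and 0.0122), and HES1 was not called (1.03, 0.05914). With Foxj1 CRISPR NRARP rose (0.83, adjusted p = 0.04792) and HES1 and LFNG were not called. Without control replicate 2, HES1 was called higher with the morpholino (1.46, adjusted p = 0.00996, edgeR) and with Foxj1 CRISPR (1.24, 0.02133). In that setting NRARP was not called with Foxj1 CRISPR (0.89, adjusted p = 0.05097, edgeR). The morpholino calls of NRARP and LFNG held there. Of 58 signalling models, 14 rose and 3 fell with Foxn4 CRISPR, 15 rose and 4 fell with the morpholino and 23 rose and 2 fell with Foxj1 CRISPR, with medians of 0.48, 0.22 and 0.91. The tested Notch models had a median of 1.565 TPM in the control, with 12 of 32 under 1 TPM, and the signalling models 3.422 TPM, with 16 of 58. A low model can enter the test through the groups where it is high and then has to differ, so the full counts do not describe the lists. At 1 TPM or more in the control, 6, 11 and 11 of 20 Notch models rose and 0, 2 and 1 fell. Of 42 signalling models at that level, 11, 12 and 16 rose and 3, 3 and 2 fell. Of all tested models under 1 TPM, 31.1, 46.8 and 36.3% rose and 1.68, 1.97 and 3.4% fell in these comparisons, and of those at 1 to 10 TPM 11.8, 25.4 and 20.4% rose and 8.51, 13.8 and 14.1% fell. With control replicate 2 left out, 23 of 57 signalling models rose with the morpholino. The part of level in these counts was not tested.

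BAMBI was not called in the Foxn4 groups on either scaffold. On scaffold 17434 it stood at 125.3 and 118.4 CPM with Foxn4 CRISPR, 155.3 and 162.1 with the morpholino and 218.9 and 202.3 with Foxj1 CRISPR, against 66.89, 141.4 and 132.3 in the control. Its log2 fold changes were 0.1 ± 0.3 and 0.48 ± 0.3 in the Foxn4 groups (adjusted p = 0.8279 and 0.2088, edgeR). ZNF217, with as many regions, had 66.15 and 101 CPM with Foxn4 CRISPR, 93.33 and 51.47 with the morpholino and 133.7 and 147.1 with Foxj1 CRISPR, against 20.12, 28.26 and 31.15 in the control. Its rise of 2.4 ± 0.31 with Foxj1 CRISPR held (adjusted p = 0.0004654), and the rises of 1.66 ± 0.31 and 1.45 ± 0.31 in the Foxn4 groups ended without CRISPR replicate 2 (adjusted p = 0.06497) and without morpholino replicate 1 (0.06066).

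Epidermal genes were called in both directions. Of 48 tested linked models, 9 rose and 5 fell with Foxn4 CRISPR, 11 rose and 11 fell with the morpholino and 10 rose and 6 fell with Foxj1 CRISPR. Among all tested models 12.6, 23.9 and 19.8% rose and 10.7, 21.1 and 20.7% fell, so the morpholino counts stood near these shares. PRDM1, a transcriptional repressor with 7 regions of up to 154.7 scaled tags, stood at 31.57 and 41.61 CPM with Foxn4 CRISPR, 47.75 and 35.42 with the morpholino and 48.69 and 64.03 with Foxj1 CRISPR, against 5.711, 5.416 and 5.68 in the control. It rose in all 3, by 2.71 ± 0.26, 2.89 ± 0.26 and 3.33 ± 0.26, and held in every leave-out (adjusted p = 0.0001893 with Foxn4 CRISPR, edgeR). MSX1, a BMP target with 7 regions of up to 236.2 scaled tags, stood at 63.26 and 55.64 CPM with Foxn4 CRISPR, 17.39 and 6.062 with the morpholino and 52.88 and 64.77 with Foxj1 CRISPR, against 65.55, 77.51 and 123.7 in the control. It fell with the morpholino (-2.94 ± 0.46, adjusted p = 0.001013) and gave -0.58 ± 0.41 with Foxn4 CRISPR (adjusted p = 0.3199).

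Of 20 tested linked cell cycle models, 7 rose and 2 fell with Foxn4 CRISPR, 9 rose and 3 fell with the morpholino and 8 rose and 3 fell with Foxj1 CRISPR. Over all tested models 12.6 and 10.7% were called higher and lower with Foxn4 CRISPR, 23.9 and 21.1% with the morpholino and 19.8 and 20.7% with Foxj1 CRISPR. CDC25B, a phosphatase that starts mitosis, had 4 regions on scaffold 1168 and 5 on scaffold 27038. On scaffold 1168 it stood at 30 and 47.16 CPM with Foxn4 CRISPR, 310.4 and 235.8 with the morpholino and 57.88 and 82.58 with Foxj1 CRISPR, against 3.617, 9.195 and 3.959 in the control. The log2 fold changes were 2.78 ± 0.41, 5.6 ± 0.44 and 3.65 ± 0.41 (adjusted p = 0.001603, 5.774e-05 and 0.0002701, edgeR). CDKN1B on scaffold 56777, an inhibitor of cyclin-dependent kinases with 5 regions of up to 175.1 scaled tags, had 256.3 and 299.2 CPM with Foxn4 CRISPR, 356.7 and 230.3 with the morpholino and 320.1 and 322.6 with Foxj1 CRISPR, against 26.27, 33.51 and 50.43 in the control. Its copy on scaffold 402746, with 5 regions of up to 234.1, gave 0.44 ± 0.24 with Foxn4 CRISPR and 0.39 ± 0.24 with the morpholino and was not called there (adjusted p = 0.2044 and 0.2128).

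Neural genes were mostly low in the control, with a median of 0.1306 TPM over all models of the list. Of 60 linked models 31 passed the filter on low counts, 16 of them under 1 TPM in the control. A low model can pass through the groups where it is high and then has to differ, so the counts of these 31 do not describe the list. Among them 10 rose and 2 fell with Foxn4 CRISPR, 19 rose and 2 fell with the morpholino and 15 rose and 4 fell with Foxj1 CRISPR. The shares of all tested models were 12.6, 23.9 and 19.8% higher and 10.7, 21.1 and 20.7% lower. SOX11, with 6 regions, stood at 2.289 and 1.664 CPM with Foxn4 CRISPR, 7.467 and 10.5 with the morpholino and 6.077 and 7.213 with Foxj1 CRISPR, against 1.333, 1.185 and 1.606 in the control. It rose with the morpholino (log2 2.7 ± 0.34, adjusted p = 0.0003523, edgeR) and with Foxj1 CRISPR (2.27 ± 0.34, adjusted p = 0.0008841), and its value with Foxn4 CRISPR was log2 0.51 ± 0.37 (adjusted p = 0.3336).

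The same holds for the mesendoderm markers, of which 16 of 24 linked models were tested, 10 of them under 1 TPM in the control. Among the 16, 6 rose and 2 fell with Foxn4 CRISPR, 3 rose and 3 fell with the morpholino and 5 rose and 2 fell with Foxj1 CRISPR. The shares of all tested models were 12.6, 23.9 and 19.8% higher and 10.7, 21.1 and 20.7% lower. T, the gene of Brachyury, a mesoderm factor, stood at 2.892 and 3.487 CPM with Foxn4 CRISPR, 0.2947 and 0.6736 with the morpholino and 5.498 and 5.078 with Foxj1 CRISPR, against 0.2538, 0.1692 and 0.3443 in the control. It rose with Foxn4 CRISPR (log2 3.6 ± 0.49, adjusted p = 0.001172, edgeR) and Foxj1 CRISPR (4.32 ± 0.49, adjusted p = 0.0002683), and its value with the morpholino was 0.97 ± 0.56 (adjusted p = 0.1798). GSC, a gene of the organizer, had 2.892 and 6.737 CPM with Foxn4 CRISPR, 12.48 and 16.67 with the morpholino and 1.519 and 2.061 with Foxj1 CRISPR, and no counts in any control. It was at least 81.7-fold higher with Foxn4 CRISPR, 247.3-fold with the morpholino and 30.38-fold with Foxj1 CRISPR, against a floor of 3 counts over the control group. T and GSC were near 0 in every control. They entered the test through the perturbed groups where they were high, and there they had to differ. The p-values of T therefore lend no support, and the fold changes of both are imprecise.

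Large rises occurred at strong and at weak regions. POU5F1, a pluripotency factor, had a region of 142.5 scaled tags with Multicilin 1603 bp upstream. It stood at 24.94 and 23.62 CPM with Foxn4 CRISPR, 166.1 and 251.5 with the morpholino and 58.24 and 37.46 with Foxj1 CRISPR, against 1.079, 0.5641 and 2.008 in the control. Its log2 fold changes were 4.31 ± 0.43, 7.41 ± 0.47 and 5.29 ± 0.44 (adjusted p = 0.0002885, 4.688e-05 and 9.582e-05, edgeR). NINJ2, an adhesion protein with 1 region of 18.3 scaled tags at 36144 bp, rose to 27.11 and 33.13 CPM with Foxn4 CRISPR, 26.92 and 36.32 with the morpholino and 20.76 and 23.62 with Foxj1 CRISPR, against 0.06346, 0.1692 and 0 in the control (log2 8.43 ± 0.51 and 8.5 ± 0.51 in the Foxn4 groups, adjusted p = 3.657e-05 and 4.688e-05, edgeR). GFRA1, a receptor for GDNF, rose to 43.25 and 36.54 CPM with Foxn4 CRISPR, 28.79 and 32.05 with the morpholino and 25.1 and 32.68 with Foxj1 CRISPR, against 0.06346, 0.5077 and 0 in the control (7.61 ± 0.64 and 7.22 ± 0.64 in the Foxn4 groups, adjusted p = 0.0001247 and 9.178e-05). Its region had 14.3 scaled tags. NINJ2 and GFRA1 were near 0 in every control, so they entered the test through the perturbed groups and then had to differ. They were also picked for the size of their rise, so their p-values lend no support and their fold changes are imprecise. POU5F1 was picked for the size of its rise too, so its p-values lend no support either and its fold changes may be overstated.

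Large falls occurred in ASTL and CLDN1. ASTL, a secreted protease, stood at 15.18 and 27.5 CPM with Foxn4 CRISPR, 1.572 and 3.705 with the morpholino and 3.834 and 10.6 with Foxj1 CRISPR, against 1255.2, 1778.9 and 1488.3 in the control. Its log2 fold changes were -6.14 ± 0.58, -9.11 ± 0.67 and -7.71 ± 0.63 (adjusted p = 0.00019, 5.258e-05 and 9.329e-05, edgeR), and its region had 28.5 scaled tags at 25749 bp. CLDN1, a tight junction protein, had 1.446 and 3.012 CPM with Foxn4 CRISPR, 0 and 0.1123 with the morpholino and 0.1447 and 0.6624 with Foxj1 CRISPR, against 24.69, 173 and 48.02 in the control, where replicate 2 was the highest. It was called lower in all 3 (adjusted p = 0.004177, 0.000416 and 0.0006579). ASTL and CLDN1 were picked for the size of their fall, so their p-values lend no support and their fold changes may be overstated. Of 12 tested linked markers of small secretory and goblet cells, 1 rose and 3 fell with Foxn4 CRISPR, 1 rose and 6 fell with the morpholino and 1 rose and 5 fell with Foxj1 CRISPR. Among all tested models 12.6, 23.9 and 19.8% rose and 10.7, 21.1 and 20.7% fell.

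MTAP, an enzyme of methionine salvage with a region of 97.7 scaled tags 3766 bp upstream, differed between the perturbations. It stood at 7.832 and 8.481 CPM with Foxn4 CRISPR, 118.4 and 156.7 with the morpholino and 11.29 and 14.72 with Foxj1 CRISPR, against 559.1, 209.2 and 466.7 in the control. All perturbed libraries were below all controls, the CRISPR groups by far more. The log2 fold changes were -5.65 ± 0.48 with Foxn4 CRISPR (adjusted p = 0.0001304), -1.58 ± 0.38 with the morpholino (0.008078, and 0.07465 without morpholino replicate 1) and -4.98 ± 0.46 with Foxj1 CRISPR (0.0001334) in edgeR. Morpholino against Foxj1 CRISPR, neither of them taken over, gave 3.4 ± 0.44 (adjusted p = 0.003483), which held in every leave-out. ANK3, a membrane anchor protein with a region of 69.2 scaled tags 2445 bp away, had 207.4 and 126.5 CPM with Foxn4 CRISPR, 1.572 and 7.746 with the morpholino and 27.64 and 16.85 with Foxj1 CRISPR, against 595.7, 284.9 and 907.8 in the control. It fell with the morpholino (-6.95 ± 0.81, adjusted p = 0.0002508), and with Foxn4 CRISPR its value was -1.84 ± 0.61 (adjusted p = 0.05375), called without control replicate 2 (-2.17, adjusted p = 0.01894). MTAP and ANK3 were likewise picked for the size of their fall, so their p-values against the control lend no support.

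**Figure D5:**
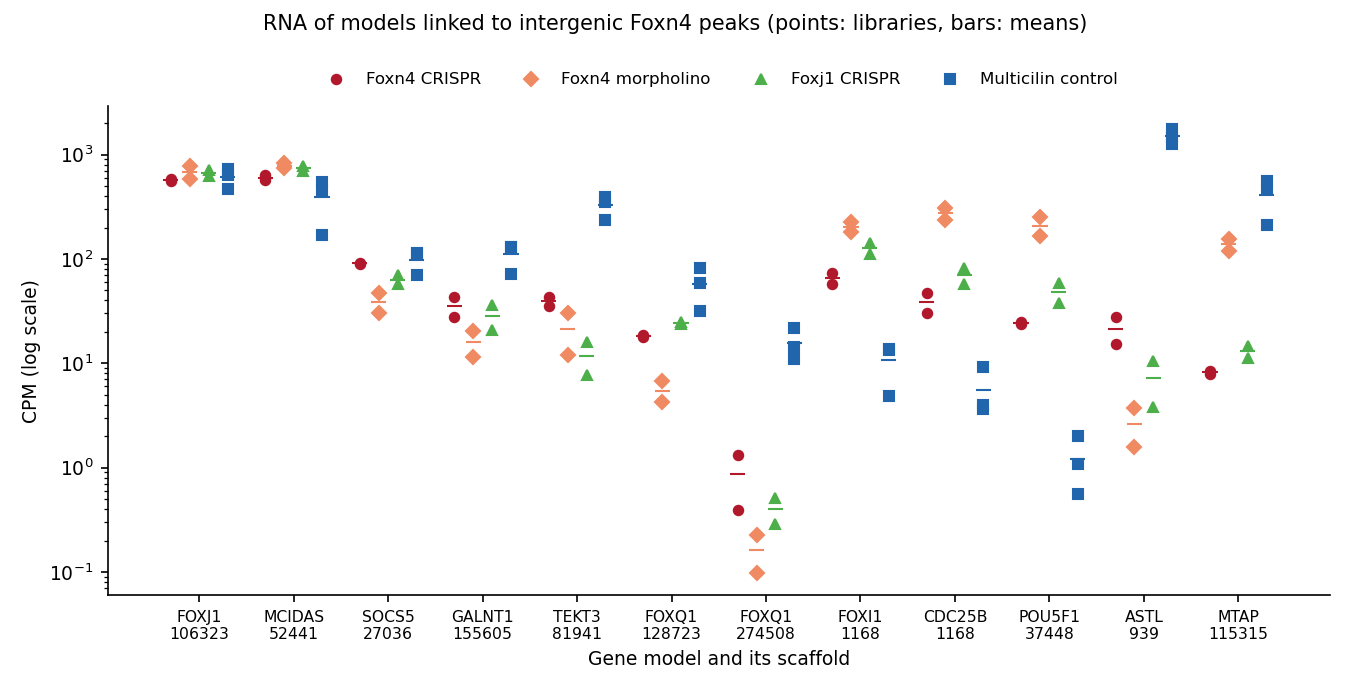
RNA level in CPM (vertical axis, log scale) of 12 gene models near the kept intergenic peaks, with the scaffold under each symbol; points are libraries and bars group means of Foxn4 CRISPR, Foxn4 morpholino, Foxj1 CRISPR and control. FOXJ1 lies between 471.4 and 783.7 CPM in all groups, POU5F1, CDC25B and FOXI1 lie above the control in every perturbed library and ASTL, TEKT3 and GALNT1 below it.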

How the data were processed

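RNA was measured in 9 libraries and Foxn4 binding in 2. Per the labels' protocols, libraries were poly-A selected and not stranded. Per the submitters' processing notes, the tools were Bowtie2 and HOMER, STAR, eXpress and DESeq, and the genome version was 7.1. The authors deposited expected counts (estimated by eXpress), counts of uniquely matching reads and TPM per gene model, and HOMER peak lists. Per the file headers the lists hold tags scaled to 10000000 (a signal), tag counts, a focus ratio given as a fraction, a peak score, fold ratios over input and local background, and p-values, at a false discovery rate of 0.001 and at least 4-fold over both.

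From these, peaks were classed against the gene models, and estimated counts were rounded and tested with edgeR 4.0.16 (quasi-likelihood, TMM, filterByExpr) in R 4.3.3 over all 9 libraries, with Benjamini-Hochberg adjustment at 0.05 over the 19058 of 24383 models tested. CPM were TMM-scaled. DESeq2 1.42.0, the block of replicate numbers and leave-outs were alternatives. The script was tested on simulated data. The labels tie replicate numbers to no shared batch, and each perturbed group holds 2 libraries, so numbers were not taken as pairs.

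The regions, gene lists and tests were chosen with earlier results of these data known. Named regions were the 10 highest, the 3 nearest to each side of the 1000 bp limit and those linked to regulator or forkhead models. Named genes were their linked models, the 8 largest called rises and falls of each Foxn4 comparison with at least 5 CPM and no overlap, the 8 strongest called in both, the 5 models with most regions and linked cilium genes; not all are described. Up to 4 examples per list, those with most regions, were chosen after values were seen. Models sharing near-identical copies may share reads. The authors' comparison tables and 6 re-used input libraries were not used. No genome sequence of version 7.1 was used, so no sequences are shown.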

Additional observations from a re-analysis of the deposited data

How the results depend on the processing

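The number of kept intergenic peaks moved by less than 1.5 times under every alternative run. The share of intergenic peaks kept with Multicilin was 83.31% when at least 0.5 of the peak had to be covered, 74.44% with centres within 100 bp, 83.7% at 8-fold over input, 83.29% at 8-fold over the local background, and 86.46% on scaffolds with a model, against 85.78%. For linked models, counts are given as higher and lower. Linking only within 10000 bp left 1856 tested models, with 234 and 224 called for Foxn4 CRISPR, 371 and 531 for the morpholino and 364 and 445 for Foxj1 CRISPR, all against the control, and against Foxj1 CRISPR 25 higher for Foxn4 CRISPR and 61 and 93 for the morpholino. Linking every start within 50000 bp gave 6095 models, with 709 and 711, 1321 and 1491, and 1169 and 1366, and 84 and 229 higher against Foxj1 CRISPR. DESeq2, over 4373 models, called 141 and 15 for Foxn4 CRISPR and 191 and 305 for the morpholino against Foxj1 CRISPR. Without the low-count filter Foxn4 CRISPR gave 77 and 5 there. With the replicate block it gave 0 and 0 in edgeR, with 346 and 144 at an unadjusted p under 0.05 in edgeR, 332 and 133 without the block, and 141 and 15 called by DESeq2. Deviations of same-numbered libraries correlated at 0.515 between Foxn4 and Foxj1 CRISPR, 0.174 between morpholino and Foxj1 CRISPR and 0.092 between the Foxn4 groups, and at -0.142 to -0.017 between perturbed groups and controls. With 2 libraries a group and no batch in the labels, whether the numbers pair the perturbed libraries cannot be told.

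Leaving out 1 library at a time gave 180 to 522 higher and 71 to 513 lower for Foxn4 CRISPR, 557 to 837 and 605 to 1039 for the morpholino and 372 to 804 and 368 to 910 for Foxj1 CRISPR against the control. Against Foxj1 CRISPR it gave 0 to 98 and 0 to 11 for Foxn4 CRISPR, and 17 to 183 and 26 to 268 for the morpholino. The Foxn4 CRISPR counts were 180 and 71 without its replicate 1 and 208 and 109 without its replicate 2, the morpholino falls 605 without its replicate 1, and the Foxj1 CRISPR counts 372 and 368 without its replicate 1, with 571 falls without its replicate 2. Without control replicate 2 all counts were higher, 522 and 513, 837 and 1039, and 804 and 910. For morpholino against Foxj1 CRISPR, 125 higher and 144 lower became 44 and 28 without Foxj1 CRISPR replicate 2. Of the 237 called values of named genes, 0 changed sign in any alternative, and 131 values that were not called did. With uniquely matching reads, FOXD3 on scaffold 53042 turned with the morpholino, at -2.81 against 0.5. The cause of these shifts was not tested, and some of these settings also had fewer samples or models. Depth limits the weak regions, whose lowest rested on 6 reads.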
